A study of Mus musculus with 30 samples.

Results

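The ascending colon of mice lacking core O-glycans in the intestinal epithelium was compared with the ascending colon of littermate controls. The members were the libraries labelled as ascending colon, 15 of the 30 libraries of the study, of which 7 were controls and 8 were mutants. The other 15 libraries came from the descending colon and served here as a second region. RNA was read by ribosome-depleted sequencing, and gene levels are given in the authors' deposited FPKM, read numbers scaled by gene length and by library depth.

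Mucin-type O-glycans are sugar chains that begin with N-acetylgalactosamine on serine or threonine and cover mucins and many membrane proteins of the gut. C1galt1 adds galactose to form the core 1 chain, and B3gnt6, called C3GnT in the labels, adds N-acetylglucosamine to form the core 3 chain that is typical of the colon. Without both enzymes the chains cannot be built in the usual way, the mucus layer that parts bacteria from the epithelium becomes thin, and in mice inflammation of the colon follows.

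The mutants carried C1galt1f/f;VillinCre-ERT2;C3GnT-/-, so that B3gnt6 was absent from all cells while C1galt1 could be deleted by a tamoxifen-activated Cre under the villin promoter, which is active in the intestinal epithelium. The controls were wild-type littermates. Both genotypes received 0.5 mg of tamoxifen per day (about 20 mg/kg) into the peritoneum for 5 days, and tissue was taken 5 or 10 days later, with no label that says which library belongs to which time. All mice were female and specific-pathogen-free, and littermates shared their microbiota. They came from 3 cages. Cage A held 2 controls and 3 mutants of 3.4 months labelled as C57BL/6, although the protocol gives a mixed BL/6-129 background for all mice. Cage B held 3 controls and 2 mutants of 2.6 months, and cage C held 2 controls and 3 mutants of 3.2 months, both of the mixed BL/6-129SvJ background. Cage, age and strain therefore cannot be told apart. A library is named below by its genotype, cage and label number, so that control B1 is the first control of cage B. The labels do not say that each library is a separate animal, and p-values measure the spread between these libraries.

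Among the libraries, 1 went against its position label. Hoxa13, a patterning factor of the hindgut end, stood at 27.17 FPKM in control B1, at most 10.52 in the other ascending libraries and 20.56 to 45.30 in the descending ones. Slc10a2, a bile acid carrier at 0 to 3.13 FPKM in the descending libraries, stood at 1.64 FPKM in control B1 and at 37.15 to 65.66 in the other 14. Osr2, a gene of the proximal colon, stood at 2.32 against 35.84 to 76.77. Hoxb13, which was at 44.48 FPKM or more in every descending library, reached only 4.55 in control B1, and Hoxd13 was listed at 0 there, so that the library matched neither region in full. Results that rest on it are given with and without it. Control C1 (Hoxa13 at 10.52 FPKM) and mutant C3 (6.56) leaned the same way to a lesser degree. The depth estimated from the steps of low values ran from 1.47 to 7.76 M reads, and the 3 mutants of cage A, at 1.47 to 1.55 M, were the shallowest.

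**Figure D1:**
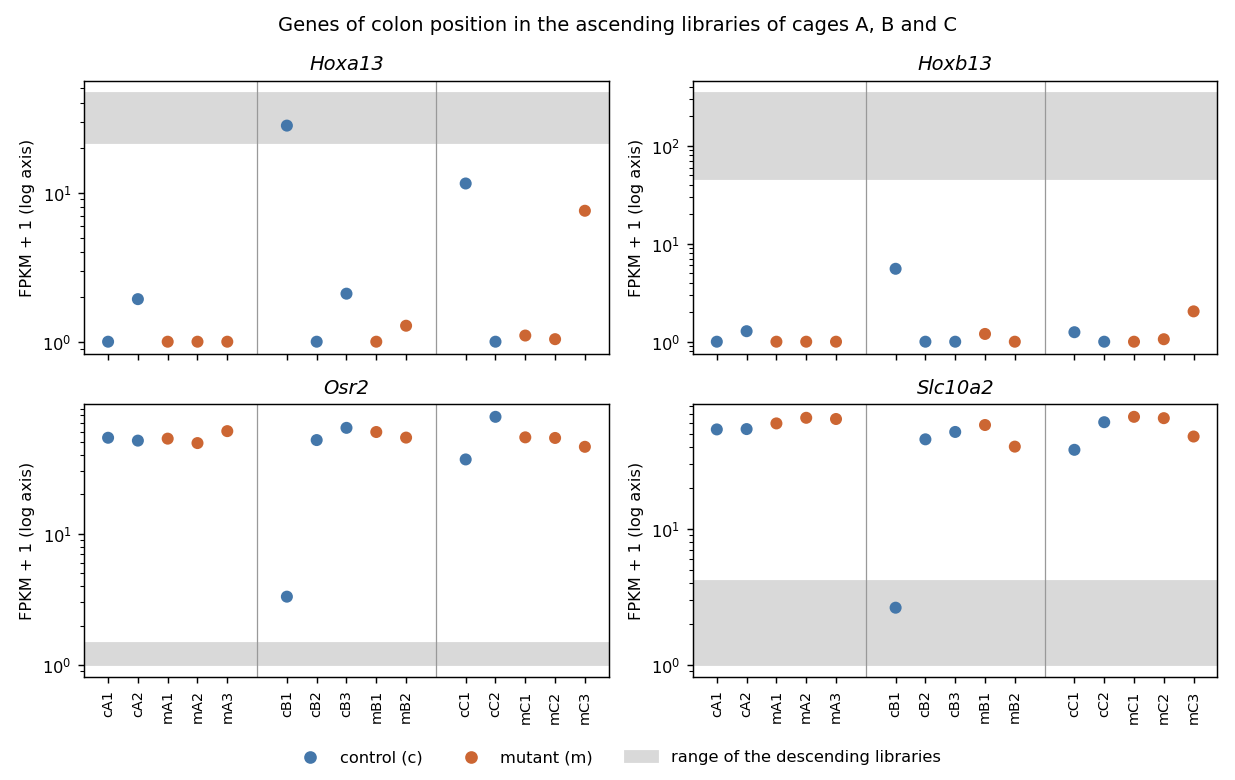
Levels of Hoxa13, Hoxb13, Osr2 and Slc10a2 in the 15 ascending libraries, as FPKM + 1 on a log axis, with controls and mutants by cage and the range of the 15 descending libraries as a grey band. Control B1 lies at or near the descending band for Hoxa13 (27.17 FPKM) and Slc10a2 (1.64 FPKM), apart from the other ascending libraries.

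The targeted genes were read first. C1galt1 stood at 45.71 and 36.19 FPKM in the controls of cage A and at 30.80, 34.30 and 33.49 in its mutants, at 38.56, 44.81 and 36.27 against 18.57 and 29.93 in cage B, and at 23.77 and 21.49 against 18.26, 20.41 and 27.58 in cage C. Mutants lay below the controls of their cage in cages A and B and overlapped them in cage C (35.3 ± 9.44 against 26.7 ± 6.64 FPKM, SD, n = 7 and 8; log2 difference -0.36 ± 0.13 SE, limma adjusted p = 0.348). The whole-gene value covers every cell of the piece and the parts outside the deleted stretch, which the labels do not name. B3gnt6 reached 9.52 and 19.52 FPKM in controls B1 and B2, stayed at or below 0.60 in the other 5 controls, and was at or below 0.53 in all 8 mutants, so 5 of the 7 controls were near the mutants (adjusted p = 0.42).

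The promoters of 2 lipid genes that recur in the results are shown because they share an 18-base run while their levels differed between the genotypes in opposite directions, neither past the test. Abca1 carries cholesterol out of the cell onto apolipoproteins, and Fasn makes palmitate. Both are textbook targets of the liver X receptors, nuclear receptors that bind oxysterols and recognise a pair of half-sites set 4 bases apart. The sequences are from RefSeq on GRCm38.p6, 250 bases up to the base before the gene start, read 5′ to 3′ on the gene's strand, and capitals mark the longest run of bases that both hold, TGACCGGTAGTAACCCCG. The Abca1 stretch is chr4:53159896-53160145 (minus strand) and the Fasn stretch is chr11:120824548-120824797 (minus strand).
Abca1: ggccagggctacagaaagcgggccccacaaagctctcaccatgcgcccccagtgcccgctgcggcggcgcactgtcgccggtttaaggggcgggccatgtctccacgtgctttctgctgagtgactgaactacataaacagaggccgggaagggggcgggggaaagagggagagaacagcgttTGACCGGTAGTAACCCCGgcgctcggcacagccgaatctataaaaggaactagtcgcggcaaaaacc
Fasn: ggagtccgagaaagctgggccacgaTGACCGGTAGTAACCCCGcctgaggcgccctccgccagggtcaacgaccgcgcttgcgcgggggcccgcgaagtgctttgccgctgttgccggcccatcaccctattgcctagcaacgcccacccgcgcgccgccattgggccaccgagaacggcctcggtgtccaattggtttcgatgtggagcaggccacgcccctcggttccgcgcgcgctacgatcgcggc
The run lies 67 to 50 bases before the start of Abca1 and 225 to 208 bases before that of Fasn. Searched on both strands, it was found in 2 of 32851 promoters of this length (0.00609%) and thus in no other gene of the 14461 in the table with a promoter (0.0138%). Its first 16 bases with the middle 4 left free (TGACCGNNNNTAACCC, both strands, which overlaps the run) were found in 3 promoters (0.00913%), 3 of them of genes in the table (0.0207%): Abca1, Fasn and Srebf1. The motif was chosen after the promoters were read, and a match is a description of letters, not of binding.

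Of 14475 genes in the table, 12178 reached a mean of 0.5 FPKM over the 15 libraries and were tested on log2(FPKM + 1) with cage as a covariate. No gene passed at an adjusted p under 0.05 in limma with Benjamini-Hochberg adjustment (0 of 12178, or 0%; lowest adjusted p = 0.212). At an unadjusted p under 0.05 there were 1396 genes (11.5%), of which 421 (3.46%) were higher and 975 (8.01%) lower in the mutants. Lower values also prevailed over all genes, with 61.3% below 0, 38.7% above 0 and a median log2 difference of -0.05. That split depended on the scaling: with median-of-ratios scaling 47.7% of genes were above 0 and the counts at an unadjusted p under 0.05 were 634 higher and 757 lower, and with quantile normalization they were 50.3%, 734 and 558. All fold values below are log2 differences of FPKM + 1, mutant minus control, which understate the change of low genes. A whole piece of colon was read, so fewer cells of a type and less RNA per cell cannot be told apart.

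Agreement between the cages was first read without a model, by asking for genes whose mutants all lay above, or all below, the controls of the same cage in each of the 3 cages. There were 53 such genes (0.435%), 15 higher (0.123%) and 38 lower (0.312%) in the mutants. This is a description and no test. Under median-of-ratios scaling 61 genes met the rule, 31 higher and 30 lower, with 30 shared with the 53. Under quantile normalization 74 met it, 52 higher and 22 lower, with 21 shared, so the excess of lower genes depended on the scaling. Without control B1, 201 of 12149 genes met it (1.65%; 56 higher, 0.461%, and 145 lower, 1.19%).

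Lipid genes appeared on both sides. Abca1 stood at 6.69 and 6.30 FPKM in the controls of cage A against 2.61, 2.49 and 2.41 in its mutants, at 3.13, 5.14 and 4.10 against 2.51 and 2.89 in cage B, and at 6.17 and 6.12 against 2.42, 3.19 and 4.15 in cage C. The groups did not overlap within any cage, and the smallest gap was in cage B, where control B1 was the lowest control. Abca1 had the smallest p of the comparison (5.38 ± 1.32 against 2.83 ± 0.596 FPKM; log2 difference -0.77 ± 0.13 SE, limma adjusted p = 0.212). Without control B1 it passed (-0.83, adjusted p = 0.0308), as it did without mutant B1 (-0.80, adjusted p = 0.0363) and in 1 fit of all 30 libraries that shares their spread (-0.77, adjusted p = 0.0163). Over 29 alternatives its difference ran from -0.95 to -0.61, it passed in 6, and its adjusted p ran from 0.00873 to 0.981, the highest being that without cage A. In the descending colon the difference was -0.49 ± 0.12 SE, and the ascending effect exceeded it by -0.28 ± 0.17 SE, which did not pass.

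The half-transporters of the same ABC family that carry sterols, chosen after their values were seen, were also lower on average. Abcg5, which pairs with Abcg8 to return plant and animal sterols to the gut lumen, stood at 5.58 and 4.06 against 0.70, 1.74 and 0.48 FPKM in cage A, at 0.27, 1.72 and 2.15 against 0.51 and 1.64 in cage B, and at 3.34 and 4.44 against 1.53, 1.12 and 2.49 in cage C. Its groups separated in cages A and C and overlapped in cage B, where control B1 was the lowest of all (-0.87 ± 0.26 SE, adjusted p = 0.273). Without control B1 the log2 difference was -1.03. Abcg8 gave -0.63 ± 0.23 SE and Abcg1, which loads cholesterol onto lipoproteins, -0.37 ± 0.13 SE (adjusted p = 0.345 for each). ABC transporters as a family showed no lean, with 15 of 33 tested members higher, 18 lower and a median of -0.03.

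Fasn stood at 28.33 and 36.42 FPKM in the controls of cage A against 43.20, 46.89 and 47.42 in its mutants, at 25.18, 37.44 and 36.00 against 37.85 and 39.71 in cage B, and at 37.86 and 30.86 against 43.06, 43.31 and 40.91 in cage C. Mutants exceeded controls in every cage, by a narrow gap in cage B (33.2 ± 5.02 against 42.8 ± 3.30 FPKM; 0.35 ± 0.10 SE, adjusted p = 0.267). Srebf1, the sterol-regulated transcription factor that drives lipid synthesis and the other gene with the spaced motif, was at 17.7 ± 2.49 against 21.1 ± 2.21 FPKM (0.21 ± 0.10 SE, adjusted p = 0.414), with cage effects of 0.34, 0.15 and 0.15. Abca1 was thus the only 1 of the 3 with a value below 0. Pparg, a nuclear receptor for fatty acids that is high in colonocytes, was 58.63, 57.16 and 57.87 FPKM in the mutants of cage A above controls at 53.41 and 53.78, 85.90 and 62.09 above 41.43, 54.48 and 53.64 in cage B, and 76.12, 76.39 and 71.53 above 51.45 and 61.27 in cage C (0.36 ± 0.10 SE, adjusted p = 0.272). Its cage effects were 0.11, 0.55 and 0.40, the smallest in cage A.

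The higher side held other genes with no fixed list behind them. Aldh1a7, a close copy of the retinal dehydrogenase Aldh1a1 whose reads may be split between copies, stood at 5.30 and 5.56 against 11.32, 12.11 and 12.63 FPKM in cage A, at 2.90, 3.88 and 3.74 against 4.47 and 4.13 in cage B, and at 2.96 and 4.19 against 5.09, 9.52 and 7.36 in cage C. The difference was wide in cages A and C and narrow in cage B (0.70 ± 0.14 SE, adjusted p = 0.214; without mutant B1 0.75, adjusted p = 0.0411). Cyp2c66, 1 of many near-identical cytochrome P450 genes, gave the largest value of the higher genes (1.00 ± 0.35 SE, adjusted p = 0.338), and 0.69 without control B1, where it was listed at 0. Abcc3, which exports bile acids and glucuronides, was at 129 ± 15.4 against 168 ± 25.9 FPKM (0.37 ± 0.10 SE), and Dhrs7b, a reductase of ether lipid synthesis, at 22.3 ± 3.83 against 28.2 ± 4.47 (0.37 ± 0.10 SE). Adss, which commits IMP to adenylate synthesis, gave cage effects of 0.38, 0.32 and 0.43 (16.3 ± 1.38 against 21.4 ± 1.48 FPKM; 0.38 ± 0.08 SE, adjusted p = 0.214). In the descending colon the 12 named higher genes ran from -0.11 ± 0.10 SE (Adss) to 0.33 ± 0.13 SE (Fasn). No difference between the regions passed. The remaining higher genes of the named 12 were Cep55 and Hmmr, which act in cell division, with 0.62 ± 0.13 and 0.46 ± 0.11 SE, and Ttc38, Cyb5b and D8Ertd738e, with 0.29, 0.24 and 0.35. Of the 12 higher genes, Abcc3 and Pparg met the rule under median-of-ratios scaling but not under quantile normalization, and Cyb5b and D8Ertd738e met it under neither.

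**Figure D2:**
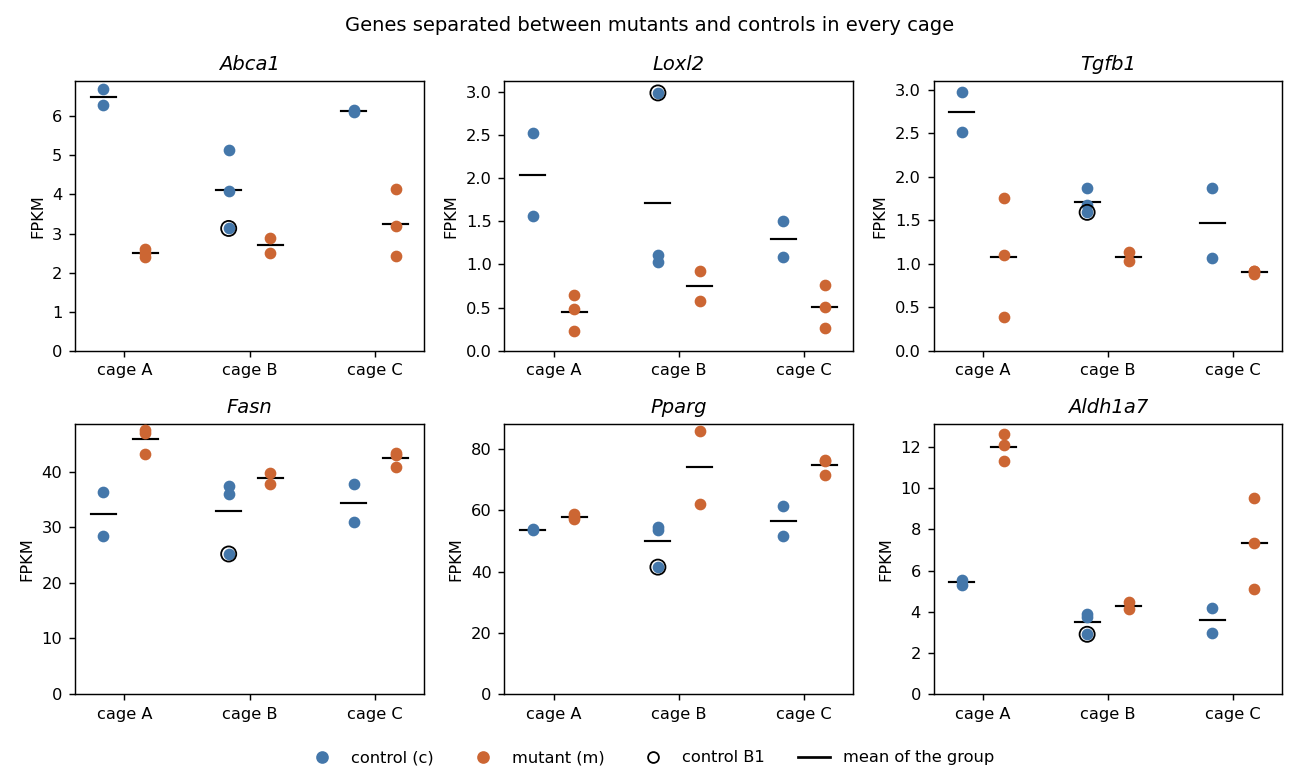
FPKM of Abca1, Loxl2, Tgfb1, Fasn, Pparg and Aldh1a7 in each ascending library, by cage and genotype, with black lines at group means and a ring around control B1. In each cage all mutants lie on 1 side of all controls, below them for Abca1, Loxl2 and Tgfb1 and above them for Fasn, Pparg and Aldh1a7.

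On the lower side the named genes had varied roles. Loxl2, an enzyme that cross-links collagen, stood at 1.56 and 2.52 against 0.23, 0.65 and 0.48 FPKM in cage A, at 2.99, 1.11 and 1.03 against 0.92 and 0.58 in cage B, and at 1.5 and 1.09 against 0.51, 0.76 and 0.26 in cage C. No mutant reached 1 FPKM and every control exceeded it (-0.74 ± 0.17 SE, adjusted p = 0.214; without mutant B1 -0.80, adjusted p = 0.0465). Tgfb1, the growth factor that restrains inflammation and drives matrix production, was 2.97 and 2.51 against 0.39, 1.10 and 1.75 FPKM in cage A, 1.59, 1.87 and 1.68 against 1.13 and 1.03 in cage B, and 1.87 and 1.07 against 0.92, 0.88 and 0.92 in cage C. Its cage effects were -0.90, -0.38 and -0.35 (-0.55 ± 0.15 SE, adjusted p = 0.255), and it gave -0.02 ± 0.17 SE in the descending colon. Over the 11 named lower genes the descending values ran from -0.49 (Abca1) to that of Tgfb1, and no difference between the regions passed. Col4a1, a basement membrane collagen, gave -0.86 ± 0.21 SE, and Dpt, a matrix protein of fibroblasts, -0.94 ± 0.27 SE. Axl, a receptor by which phagocytes take up dying cells, was at 2.55 ± 1.13 against 1.01 ± 0.276 FPKM (-0.77 ± 0.17 SE).

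Tuba1a, a tubulin with near-identical copies, and Map1b, a microtubule protein of neurons, gave -1.27 ± 0.38 and -0.61 ± 0.14 SE. Rnf31, a subunit of the ubiquitin ligase that activates NF-kB, was at 23.4 ± 6.43 against 15.7 ± 4.05 FPKM (-0.53 ± 0.12 SE; without mutant B1 adjusted p = 0.0465). Cmtr1, which methylates the mRNA cap, gave -0.47 ± 0.12 SE, and Spaca6, a sperm fusion protein, -0.50 ± 0.12 SE. Of the 11 lower genes named, Spaca6, Loxl2, Axl, Abca1 and Col4a1 met the rule under both other scalings. Rnf31, Cmtr1, Dpt and Tuba1a met it under neither, and Map1b and Tgfb1 under median-of-ratios scaling alone.

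**Figure D3:**
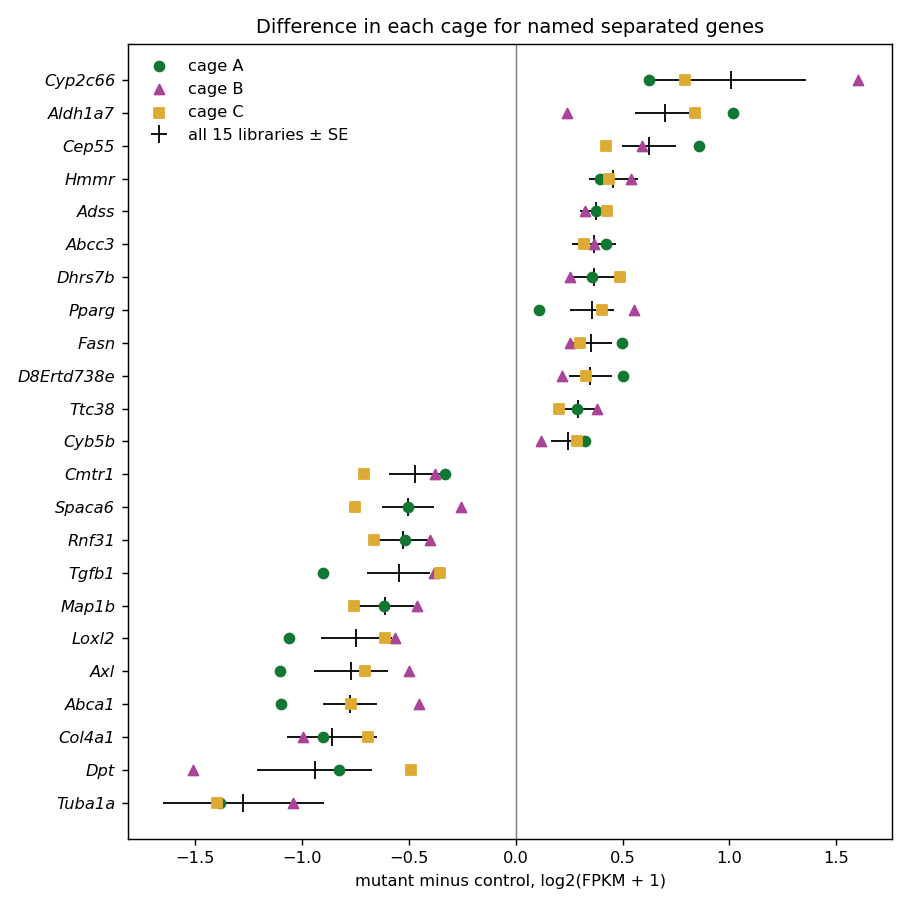
Log2 differences (mutant minus control, FPKM + 1) of the 23 named genes that separate in every cage, with 1 point per cage and a bar for the estimate over all 15 libraries ± its SE. All points of a gene lie on 1 side of 0, while the cages differ in size, as for Abca1 at -1.10, -0.45 and -0.77 in cages A, B and C.

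Markers of stroma had lower values as well. All 10 tested markers of fibroblasts and matrix were lower in the mutants (median -0.93; summed level 60.7 to 164 FPKM over the controls and 16.8 to 76.8 over the mutants), and so were all 9 of smooth muscle (median -1.12, and -0.69 without control B1; sums of 36.0 to 446 and 24.1 to 74.1, with a highest control of 124 without control B1). For macrophages 6 of 6 tested markers were lower (median -0.75; sums of 18.1 to 194 and 5.58 to 72.0), and for T cells 8 of 8 (median -0.47; sums of 14.7 to 61.0 and 10.0 to 37.5). The ranges of controls and mutants overlapped in each list. Markers of enteric neurons and glia (4 of 4), interstitial cells of Cajal (2 of 2), endothelium (2 of 2), neutrophils (3 of 3), mesothelium (4 of 4) and red cells (4 of 4) were also lower, adipocyte markers were lower in 3 of 4, and those of B cells and plasma cells in 2 of 3. The cages did not all agree on these lists. In cage C the medians of red cells (0.45), mesothelium (0.12), neutrophils (0.10) and endothelium (0.04) lay above 0. In cage B that of B cells and plasma cells did (0.23). The medians of fibroblasts and matrix, smooth muscle, macrophages and T cells were below 0 in every cage. In cage A they were -1.48, -0.30, -1.63 and -0.62 in that order. The mutants of cage A were the shallowest libraries, and the part of depth in these values was not tested. Epithelial markers were higher in 8 of 11 (median 0.21; sums of 4126 to 7010 over the controls and 5370 to 6789 over the mutants). Their medians were 0.19, -0.07 and 0.41 in cages A, B and C, so cage B did not share the rise. The part of these shifts in the results on matrix, immune and stromal genes was not tested.

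The epithelial classes did not agree between the cages. Markers of absorptive colonocytes were higher in 7 of 10 (median 0.17; 0.32, -0.34 and 0.64 by cage, and -0.09 without cage C). Those of goblet cells were higher in 5 of 8 (0.09; -0.06, -0.05 and 0.27 by cage, and -0.07 without control B1). Those of enteroendocrine cells were lower in 6 of 7 (-0.16; -0.60, 0.27 and -0.16 by cage), and those of tuft cells were split evenly at 3 and 3. Genes of the small intestine were lower in 5 of 6 (medians of -0.81, 0.43 and -0.15 by cage). The 1 tested pancreas gene was higher, none of 5 mast cell markers was in the table, and distal patterning genes were lower in 2 of 2. Proximal patterning genes were higher in 4 of 4 (median 0.23; -0.06, 1.23 and -0.34 by cage), and the median became -0.07 without control B1.

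The size of the genotype effect in each cage was then compared across all genes. Cages share no library, so their effects are separate estimates, but genes are not independent and the values are descriptions. Cages A and C resembled each other (r = 0.37 over 12178 genes; the same sign in 68.0%), cages A and B did so little (r = 0.15, 47.9%), and cages B and C ran against each other (r = -0.15, 38.9%). Of all genes, 27.4% had the same sign in all 3 cages, 1234 higher and 2098 lower, while 3372 genes were lower in cages A and C and higher in cage B. Unrelated signs also agree in part of the genes, and such shares, here and below, were not set against that level. The excess of lower genes was read in the main scaling alone.

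Cage B rested on 2 mutants, and they differed. Without mutant B1 the correlations became 0.24 for cages A and B, 0.37 for A and C, and 0.25 for B and C, and 40.0% of genes had the same sign in all 3. Without mutant B2 they became 0.01, 0.37 and -0.37. Leaving out control B1 in place of a mutant left them at 0.15, 0.37 and -0.19. Without control A1 the value for cages A and B was 0.25 and without control A2 0.01, and that for A and C was 0.25 and 0.41. Over the other libraries left out the value for A and C ran from 0.30 to 0.40 and that for B and C from -0.19 to -0.08. The 2 mutants of cage B had a spread of 0.58 (SD over genes of their log2 difference), against 0.34 to 0.48 for pairs of mutants in the other cages and 0.38 to 0.65 for pairs of controls in cage B. In mutant B1 the proximal gene Hoxb6 stood at 175.98 FPKM, the highest of the 15.

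**Figure D4:**
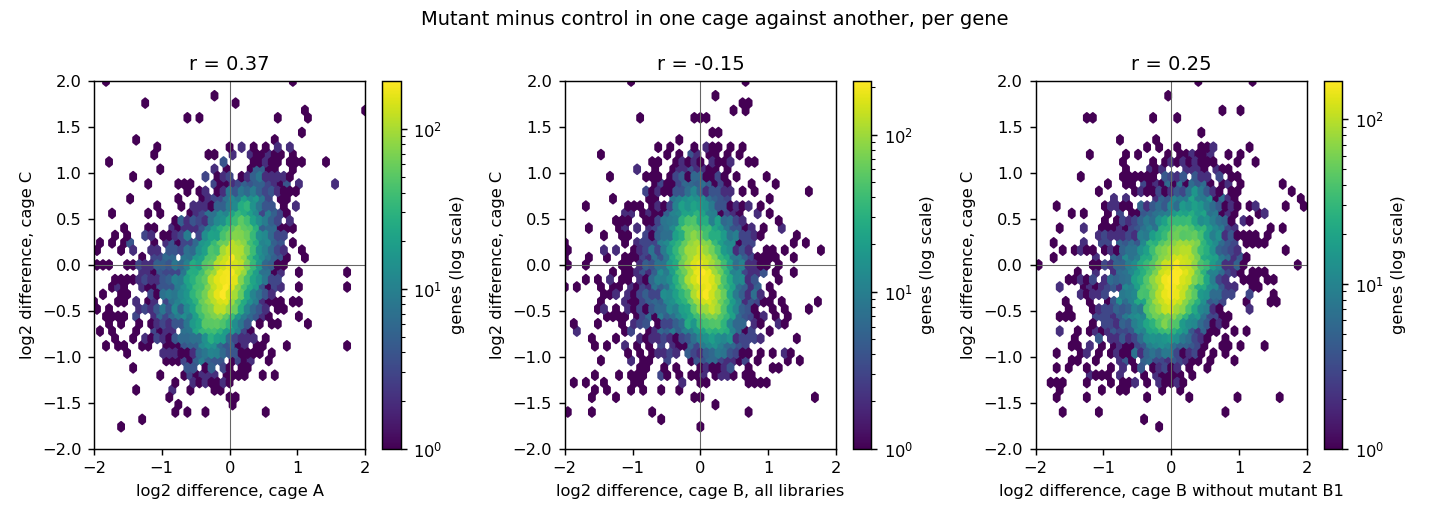
Log2 effect of genotype in 1 cage against that in another, with shade for the number of genes, for cage A against C (r = 0.37), cage B against C (r = -0.15) and cage B without mutant B1 against C (r = 0.25). Axes run from -2 to 2, and 40 genes of the first panel and 26 of the second lie beyond them.

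In the descending colon the pattern of agreement was another. There cages B and C resembled each other (r = 0.28 over 12219 genes), and cage A ran against both (-0.27 with B and -0.28 with C). Within a cage, ascending and descending effects had r = 0.48 in cage A, 0.27 in cage B and -0.29 in cage C over 11761 genes. No gene of 12353 passed the test of the ascending against the descending effect in limma (0%; lowest adjusted p = 0.9999; 212 genes, or 1.72%, at an unadjusted p under 0.05).

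Within single cages few genes passed. In cage A none did (0 of 12178 in limma, lowest adjusted p = 0.0687), with 969 (7.96%) at an unadjusted p under 0.05. In cage B 1 gene passed (0.00821%), with 545 (4.48%) at an unadjusted p under 0.05, and in cage C 2 genes (0.0164%), with 2367 (19.4%).

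The genes of cage C were Slc16a1 and Mpst, which both act in colonocytes that live on luminal products. Slc16a1 imports butyrate and lactate. It stood at 42.10 and 38.36 FPKM in the controls of cage C against 120.46, 100.50 and 84.96 in its mutants, at 54.08 and 59.52 against 91.95, 93.78 and 87.06 in cage A, and at 104.17, 74.33 and 71.39 against 58.06 and 63.25 in cage B. Mutants were above controls in cages A and C and below them in cage B, with effects of 0.67, -0.43 and 1.31 in cages A, B and C. Mpst, a sulfurtransferase that yields hydrogen sulfide, stood at 86.22 and 94.88 against 243.51, 241.70 and 180.72 FPKM in cage C, at 82.53 and 92.58 against 120.58, 134.16 and 128.44 in cage A, and at 113.61, 160.47 and 132.87 against 153.39 and 141.83 in cage B. It rose in cage C by 1.27 on the log2 scale and gave 0.54 in cage A and 0.13 in cage B, where the groups overlapped. The differences in cage C use no library of another cage. Other libraries enter these tests through the spread between libraries, which all 15 share. With 1 library left out at a time, no gene passed in cage C in 11 of 15 fits, 4 genes passed without control B1 and 230 without either mutant of cage B.

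Eno1b, a near-identical copy of the glycolytic enzyme Eno1, passed in cage B (-3.47, adjusted p = 0.0037) and in the contrast of cages A and C with cage B (3.73, adjusted p = 0.0162). It was listed at 0 in all 5 libraries of cage A, the cage labelled as C57BL/6, so its effect there was fixed at 0. Groups with every library at 0 have no spread, which narrows the spread that these tests share. Both p-values may therefore be too small. In cage B its controls had 13.73, 4.90 and 14.56 FPKM and both mutants 0, and in cage C all 5 libraries had 6.12 to 14.82 FPKM. It was either listed at 0 or near 5 FPKM or above, and which of the copies its reads came from cannot be told.

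The test for effects that depend on cage called no gene (0 of 12178 in limma, lowest adjusted p = 0.0641; 1264, or 10.4%, at an unadjusted p under 0.05), and Eno1b was the 1 gene called in the contrast with cage B (0.00821%; 1676, or 13.8%, at an unadjusted p under 0.05). After Eno1b the smallest values in the first test were those of Apoa4, Slc16a1, Dapk1, Fv1 and Abcc6. Apoa4, an apolipoprotein of lipid-absorbing enterocytes, gave -3.05, 1.18 and 0.46 by cage. Its controls of cage A, at 6.03 and 15.11 FPKM, were the only libraries above 2.50. Dapk1, a kinase that promotes cell death, stood at 5.67 and 5.40 against 3.57, 3.92 and 3.02 FPKM in cage A and at 6.52 and 7.28 against 3.22, 3.12 and 3.87 in cage C, but at 3.61, 3.76 and 3.74 against 5.65 and 4.55 in cage B. Mutants were thus below in 2 cages and above in the third. Fv1, a restriction factor against retroviruses, and Abcc6, an exporter linked to ATP release, gave near 0 in cage A (0.01 and 0.00), 0.55 and 0.68 in cage B, and -0.93 and -0.91 in cage C.

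With single libraries left out, the number of genes that passed depended on mutant B1. Without it 170 of 12155 genes passed, 88 higher (0.724%) and 82 lower (0.675%), and without both it and control B1 839 of 12145, 347 higher (2.86%) and 492 lower (4.05%), among them all of the 170. Without control B1 alone 1 gene passed (Abca1, 0.00823%), without control B2 1 (Esr1), without control B3 1 (Stmn3), and without any other library none. Mutant B1 itself lay on the side of the call, relative to the mean of its cage's controls, in 43 of the 170 genes. That count is largely set by the choice of genes, which passed once mutant B1 was removed. No share over all genes stands beside it. Removing mutant B1 was chosen after its values were known. The genes that follow, also chosen after their values were seen, are thus described and not taken as results of the full comparison.

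Scd2, a desaturase that makes monounsaturated fatty acids, stood at 51.37 and 47.36 against 140.74, 143.91 and 150.97 FPKM in cage A and at 53.44 and 57.39 against 100.50, 108.49 and 95.89 in cage C. In cage B its controls had 72.12, 65.63 and 61.40 FPKM, mutant B1 45.47 and mutant B2 95.21, so that the mutants fell on both sides (0.80 ± 0.20 SE, adjusted p = 0.228; without mutant B1 1.04 ± 0.13 SE, adjusted p = 0.00559). Plbd1, a phospholipase-like protein, stood at 9.29, 16.41 and 17.52 FPKM in the controls of cage B, at 9.63 in mutant B1, within their range, and at 28.44 in mutant B2, above it (0.81 ± 0.21 SE; without mutant B1 1.06 ± 0.13 SE, adjusted p = 0.00559). Cox7a1, a subunit of cytochrome oxidase, was at 27.42 in mutant B1 and 75.85 in mutant B2 around controls of 41.51, 32.39 and 28.98 (0.88 ± 0.23 SE; without mutant B1 1.11 ± 0.18 SE, adjusted p = 0.036).

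Esr1 was as high in mutant B1 as in the other mutants. This gene, the estrogen receptor that tamoxifen binds, stood at 0.86 and 0.74 against 2.85, 1.82 and 2.44 FPKM in cage A, at 0.32, 2.30 and 0.86 against 2.13 and 1.93 in cage B, and at 0.55 and 0.63 against 2.56, 2.34 and 2.86 in cage C. Control B2, at 2.30, was the only control within the range of the mutants (0.89 ± 0.17 SE, adjusted p = 0.214; over 28 alternatives 0.74 to 1.5, with 5 passing and adjusted p from 0.00453 to 0.981). Only the mutants carry the tamoxifen-activated Cre-ERT2, and whether reads of that construct are counted under Esr1 was not tested. On the lower side Spp1, the secreted phosphoprotein osteopontin, was at 7.42 and 18.86 against 0, 0.92 and 0 FPKM in cage A, at 4.09, 2.76 and 0.99 against 0.65 and 0 in cage B, and at 7.81 and 7.76 against 3.22, 9.91 and 0 in cage C. Mutant C2 was the 1 mutant above the controls of its cage (-2.02 ± 0.47 SE; without mutant B1 -2.20, adjusted p = 0.047). Col20a1, a minor collagen, was lower in cages A and C and stood at 10.24 FPKM in mutant B1 against 4.35, 2.88 and 4.76 in the controls of its cage and 1.90 in mutant B2 (-0.52 ± 0.26 SE; without mutant B1 -0.86 ± 0.14 SE, adjusted p = 0.0363).

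Gene families were then read, 74 in number. No member of any passed in the full comparison, so each is described by its counts and its median beside the values over all genes (38.7% above 0, median -0.05, 8.01% lower and 3.46% higher at an unadjusted p under 0.05). Named members are those of smallest p, and their adjusted p ran from 0.21 to 0.69.

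Families of immune sensing leaned to lower values. Complement components and regulators, which tag microbes and damaged cells, were lower in 15 of 16 tested members, 7 of them at an unadjusted p under 0.05 (median -0.62; -1.08, -0.55 and -0.28 in cages A, B and C). C1qb, a chain of the C1q recognition protein, was at 3.97 ± 2.34 against 1.24 ± 0.847 FPKM (-1.07 ± 0.34 SE), and C4b at 4.98 ± 2.60 against 2.27 ± 0.772. C1s1, the protease of the first complex, gave -2.80, -0.72 and -0.08, so that its value came mostly from cage A. In that cage the mutants had an estimated 1.47 to 1.55 M reads and the controls 3.58 and 6.43 M. The part of depth in the values of low genes there, here and in the families below, was not tested. Cd55, which shields host cells from complement, was at 8.35 ± 2.46 against 5.56 ± 1.2 FPKM. C1qb is also in the list of macrophage markers. Targets of NF-kB, the transcription factor of inflammatory signalling, were lower in 15 of 16 members, 6 of them at an unadjusted p under 0.05 (median -0.30; -0.31, -0.11 and -0.25, with 0.01 in cage B without control B1). Some members named act as brakes on this pathway: Zc3h12a, an RNase that destroys cytokine mRNAs, was at 31.8 ± 9.07 against 23.1 ± 3.10 FPKM, and Tnfaip3, the enzyme A20, at 12.8 ± 5.66 against 8.59 ± 1.31. Nfkbie, an inhibitor of NF-kB, gave -0.39, and Tnfaip2, a TNF-induced gene, -0.71.

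Toll-like and NOD-like receptors, which detect bacterial products, were lower in 11 of 15 members (5 at an unadjusted p under 0.05; median -0.16). Nod1, a cytosolic sensor of peptidoglycan, was at 6.49 ± 1.11 against 4.75 ± 1.03 FPKM (-0.39), and Tlr2, a receptor for lipoproteins, gave -0.90, -0.20 and -0.14 in cages A, B and C. Members of the TNF and TNF receptor families were lower in 14 of 18 (2 at an unadjusted p under 0.05; median -0.16), with -0.51 for Tnfrsf4 and -0.30 for Tnfrsf1b but 0.29 for Tnfrsf21. In cage B the medians of both families turned slightly above 0 without mutant B1, to 0.04 and 0.02. Integrins were lower in 16 of 24 (7 at an unadjusted p under 0.05; median -0.22), led by the leukocyte subunits Itgb2, Itgb7, Itgal and Itgam. Itgb7, which guides lymphocytes to the gut, was at 2.72 ± 0.806 against 1.32 ± 0.743 FPKM (-0.66). With a mean of at least 2 FPKM required, the median of integrins was 0.01.

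Matrix and its enzymes leaned the same way. Adam and Mmp proteases with their Timp inhibitors were lower in 25 of 26 members, 7 of them at an unadjusted p under 0.05 (median -0.27; -0.36, -0.13 and -0.36). Timp2, which inhibits matrix proteases, was at 9.11 ± 1.72 against 5.53 ± 1.48 FPKM, with cage effects of -0.86, -0.52 and -0.38 (-0.59 ± 0.13 SE, adjusted p = 0.214), and Timp3 was at 2.95 ± 1.64 against 1.31 ± 0.514. Proteoglycan cores were lower in 15 of 18 (4 lower and 1 higher at an unadjusted p under 0.05; median -0.26). Bgn, a small proteoglycan of collagen fibres, was at 1.57 ± 0.6 against 0.708 ± 0.221 FPKM (-0.53 ± 0.14 SE), while Cspg4 stood the other way, at 1.01 ± 0.267 against 1.69 ± 0.476. Laminins, the basement membrane proteins under the epithelium, were lower in 7 of 9 (median -0.24). Lama5 was at 3.95 ± 0.834 against 2.04 ± 0.985 FPKM (-0.69 ± 0.18 SE), and 0.23 ± 0.20 SE in the descending colon, a difference between regions that did not pass. Lamb3, a chain of an epithelial laminin, stood the other way, at 47.7 ± 8.30 against 57.4 ± 10.7 with cage effects of 0.27, 0.23 and 0.25. Coagulation and fibrinolysis genes were lower in 11 of 13 (median -0.28), and Thbd, the endothelial brake on thrombin, gave -0.52, -0.44 and -0.54 in the cages (1.98 ± 0.479 against 1.10 ± 0.414 FPKM).

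Signalling families that join epithelium and mesenchyme had medians below 0, by different margins over the background. Hedgehog genes were lower in 8 of 8 tested members, 3 of them at an unadjusted p under 0.05 (median -0.23; -0.36, -0.05 and -0.31). Shh, the ligand, was at 1.70 ± 0.682 against 1.07 ± 0.213 FPKM with cage effects of -0.39, 0.00 and -0.73. Its receptor Ptch1 was at 3.68 ± 0.428 against 3.02 ± 0.502, the co-receptor Cdon at 6.47 ± 1.13 against 4.41 ± 1.45 (-0.47), and Sufu, the inhibitor of the Gli factors, gave -0.24. BMP and TGF-beta genes were lower in 26 of 34 (6 at an unadjusted p under 0.05; median -0.17; -0.16, -0.14 and -0.21), and the signal carrier Smad1 was at 17.8 ± 1.68 against 15 ± 1.03 FPKM (-0.22 ± 0.08 SE). Wnt ligands, receptors and inhibitors were lower in 12 of 15 (median -0.16), but 1 member, or 6.67%, was so at an unadjusted p under 0.05, against 8.01% over all genes, with -0.31 for the receptor Fzd8 and -0.22 for the ligand Wnt5a. Sox factors were lower in 6 of 6 (1 at an unadjusted p under 0.05; median -0.20; in cage B -0.02, and 0.06 without mutant B1), and Sox9, a factor of crypt base cells, was at 22.1 ± 5.28 against 17.3 ± 4.67 FPKM (-0.34).

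**Figure D5:**
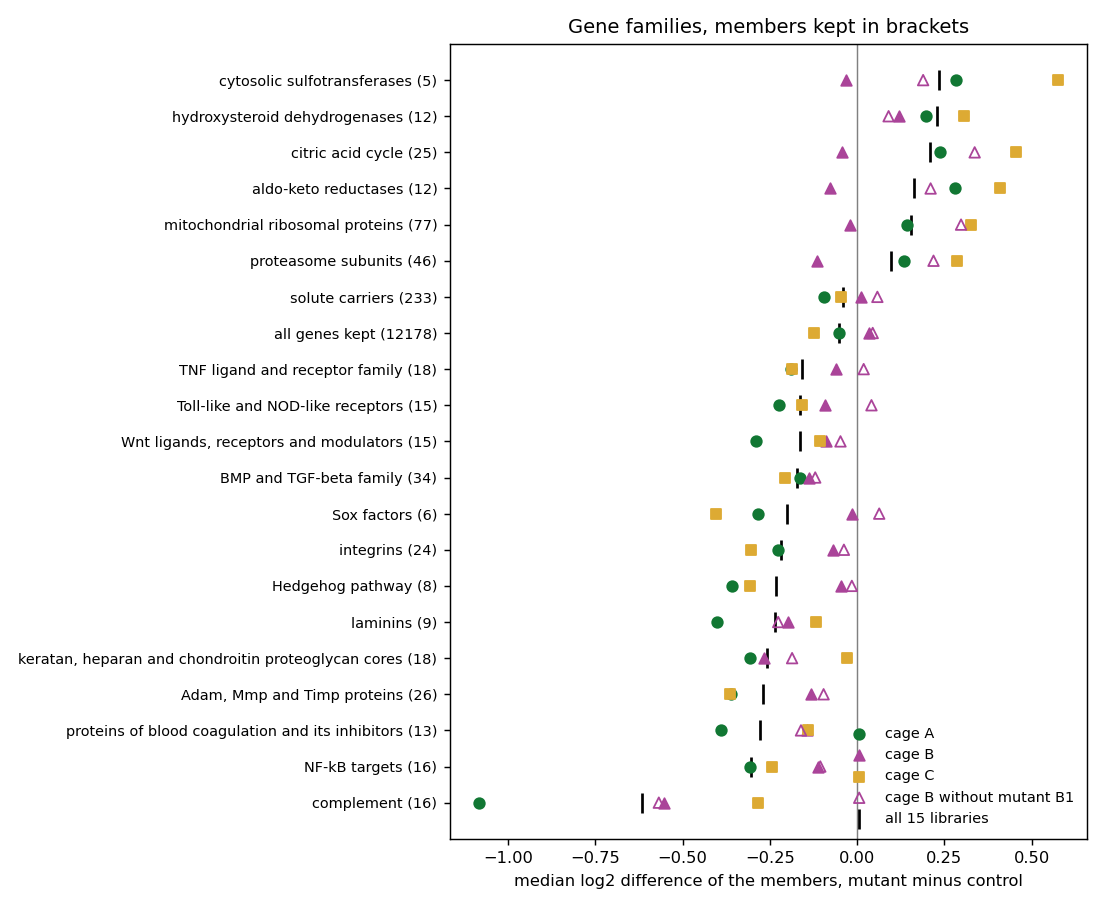
Median log2 difference (mutant minus control) of each described family in cages A, B and C, with open triangles for cage B without mutant B1. Complement lies farthest below 0 (-1.08, -0.55 and -0.28), and hydroxysteroid dehydrogenases lie above it in all 3 cages (0.20, 0.12 and 0.31).

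Hydroxysteroid dehydrogenases, which interconvert active and inactive steroids and fatty acyl intermediates, were the 1 family described that leaned to higher values in all 3 cages. They were higher in 11 of 12 members, 3 of them at an unadjusted p under 0.05 (median 0.23). Other families, with overall medians under the 0.15 needed to be described, also lay above 0 in every cage. Among them were UDP-glucuronosyltransferases (0.16, 0.24 and 0.24) and serine and one-carbon metabolism (0.15, 0.07 and 0.25). Hsd17b2, which inactivates estradiol and testosterone, was at 99.0 ± 16.8 against 144 ± 35.6 FPKM (0.52 ± 0.15 SE, adjusted p = 0.273), with mutant C1 far above the rest at 220.32. Hsd17b7, an enzyme of cholesterol synthesis, was at 4.93 ± 0.806 against 6.91 ± 1.43, Hsd17b12, of fatty acid elongation, at 20.4 ± 4.04 against 25.8 ± 6.40, and the mitochondrial Hsd17b10 gave 0.33. Solute carriers are described because Slc16a1 is a member. Of this family 90 of 233 were higher and 143 lower (12 and 14 at an unadjusted p under 0.05; median -0.04, and 0.00 with median-of-ratios scaling). Slc3a1, which with a partner imports cystine and basic amino acids, gave nearly the same value in each cage, 0.64, 0.59 and 0.57 (57.8 ± 12.2 against 87.4 ± 17.4 FPKM; 0.60 ± 0.14 SE, adjusted p = 0.214). Slc8b1, a mitochondrial sodium-calcium exchanger, stood the other way, at 11.7 ± 5.94 against 6.66 ± 1.62 FPKM (-0.60 ± 0.19 SE, and -0.46 without control B1). Slc25a1, which exports citrate from mitochondria for lipid synthesis, was at 41.5 ± 6.61 against 53.8 ± 7.76, and Slc39a5, a zinc importer, at 24.7 ± 5.10 against 35.2 ± 7.79.

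Among mitochondrial, proteasome and 2 enzyme families, chosen after their values were seen, the medians lay above 0 in cages A and C and below it in cage B. In each of the 5, the median of cage B was lower still without control B1 (-0.11 to -0.27) and above 0 without mutant B1 (0.19 to 0.34). Citric acid cycle genes were higher in 25 of 25 tested members, 2 of them at an unadjusted p under 0.05 (median 0.21; 0.24, -0.04 and 0.46 by cage, and in cage B -0.24 without control B1 and 0.34 without mutant B1). Without mutant B1, Sdhb, a subunit of succinate dehydrogenase, Dld, the shared subunit of the ketoacid dehydrogenases, and Idh3a, of isocitrate dehydrogenase, passed (0.53, 0.53 and 0.49; adjusted p = 0.0411, 0.0411 and 0.0445). In mutant B1 Sdhb was at 47.83 FPKM, below the 79.13 or more of the other mutants. Mitochondrial ribosomal proteins were higher in 71 of 77 members (9 at an unadjusted p under 0.05; median 0.15; 0.14, -0.02 and 0.33), and proteasome subunits in 36 of 46 (median 0.10; 0.14, -0.12 and 0.29). Cytosolic sulfotransferases were higher in 5 of 5 (median 0.23; 0.28, -0.03 and 0.58) and aldo-keto reductases in 10 of 12 (median 0.16; 0.28, -0.08 and 0.41).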

How the data were processed

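Total RNA (1 µg) from pieces of ascending colon was depleted of ribosomal RNA and sequenced as single 50-nt reads, per the labels' protocols. The authors deposited FPKM values per gene, rounded to 2 decimals. The submitters' processing notes list STAR, DESeq2 and bcl2fastq 2.17, and the GRCm38 (mm10) genome. How reads were assigned to genes, and with which annotation, are points not given in the sources used here. No read counts were used, and depth was estimated from the steps of low values of genes of 300 to 2500 nt (tolerance 0.2, up to 3 steps).

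Values were taken as log2(FPKM + 1). Genes averaging 0.5 FPKM or more were kept, and limma 3.58.1 in R 4.3.3 (lmFit, eBayes with a trend) was fitted with cage as a covariate. A gene passed at a two-sided Benjamini-Hochberg adjusted p under 0.05. Effects per cage, their dependence on cage (moderated F) and the contrast of cages A and C with B came from a model with a mean per cage and genotype. That contrast was chosen because cage B was known to stand apart. The regions were compared in 1 model of all 30 libraries. The procedure was tested on simulated data. Gene positions are from GENCODE M21 (14472 of 14475 identifiers matched).

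Members, families and marker lists were chosen with earlier results of these data known. Genes named were, at a mean of at least 1 FPKM and without predicted genes and antigen receptor segments, the 12 largest differences of each sign among genes separated in every cage, the 6 of smallest p for dependence on cage, up to 5 of each sign that passed in a cage or between regions, up to 4 of smallest p in each described family, and the targeted genes. Of these, 1 gene is not reported here. A family was described if at least 5 members were tested and its median had 1 sign in all cages and a size of at least 0.15, or if a member passed a test. Marker lists covered the epithelial, stromal, immune and blood cells and neighbouring organs named in the text. Label numbers were checked as pairs: 3 of 6 control and mutant pairs and 4 of 15 region pairs had a correlation of deviations over 0.1. In groups of 2 libraries both numbers give the same region value, so the 15 are not separate checks. The mutants of cage C gave 0.36, 0.27 and 0.18 between regions, and the other libraries -0.26 to 0.13. The check cannot tell whether a number marks 1 animal, and the numbers were not taken as pairs. Alternatives changed the pseudocount, filter, scaling, moderation, library weights and covariate, or left out libraries or cages.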

Additional observations from a re-analysis of the deposited data

Results flagged for a closer look

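Each group's highest and lowest library was set against the rest of its group for the genes named in the text and 3 position genes, 218 groups of 109 genes. In 22 groups the gap to the nearest library exceeded Dixon's 95% critical ratio for 7 controls or 8 mutants. That ratio flags about 1 in 20 groups drawn from 1 normal spread. These FPKM pool 3 cages and many genes were picked for their differences, so the number of flags cannot be set against that rate.

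Control B1 stood apart in 4 of these: Hoxa13 at 27.17 FPKM (other controls 0 to 10.52), Slc10a2 at 1.64 (37.15 to 59.88), Timp3 at 6.32 (1.56 to 3.37) and Slc8b1, a mitochondrial sodium-calcium exchanger, at 24.79 (8.43 to 12.18). Hoxa13 and Slc10a2 were looked at because control B1 was already seen to differ there, so these 2 are no separate observation. The other controls that stood apart were A1 for D8Ertd738e (56.54 FPKM), A2 for Apoa4 (15.11), Itgb2 (10.66) and Spp1 (18.86), B2 for Esr1 (2.30), C1 for Nod1 (8.90) and C2 for Tnfrsf1b (6.5, below the others).

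Mutant B1 stood apart for Plbd1 (9.63 FPKM, other mutants 19.60 or more), Sdhb (47.83, below the others), Gabbr1, a GABA receptor subunit (5.84, above them), and Col20a1 (10.24, above them). These 4 genes were chosen among those that passed without mutant B1, so that its distance there is no separate observation. Mutants of cage C stood apart for Abca1 (C3, 4.15), Slc8b1 (C3, 10.29), Hoxa13 (C3, 6.56, other mutants at most 0.28), Itgb2 (C2, 4.68), Spp1 (C2, 9.91), Sufu (C1, 4.45) and Hsd17b2 (C1, 220.32, other mutants 107.59 to 160.50).

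Eno1b differed between cages by test, with an effect in cages A and C that exceeded the effect in cage B by 3.73 on the log2 scale (limma, adjusted p = 0.0162).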

How the results depend on the processing

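The comparison of mutants with controls (0 genes passing) gave 0 under the other pseudocount, filters, scalings and moderation, without the cage covariate and without cage A or C. It gave 746 with array quality weights, whose iteration stopped before its tolerance in a fit, 652 without cage B, 839 without replicate 1 of both genotypes of cage B and 1 in a single fit of all 30 libraries. With 1 library left out it ran from 0 to 170, the latter without mutant B1.

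Genes separated in every cage numbered 34 where genes had to average 2 FPKM, and 62 to 557 with 1 library left out (557 without mutant B1, 133 without mutant B2, 201 without control B1). Fewer libraries separate more genes by construction, but that does not set the size of the rise. The effect in cage A (0) became 7 with a pseudocount of 0.1, 12 without a filter and 55 with weights, and 0 to 8 with 1 library left out. The effect in cage B (1) became 0 with weights and 0 to 11, the highest without mutant B2. The effect in cage C (2) became 0 without a filter or with quantile normalization and 3231 with weights, and 0 to 230, the highest without mutant B1 or B2. The dependence on cage (0) became 1 with a pseudocount of 0.1 and 1 without replicate 1 of both genotypes of cage B, and 0 to 381, the highest without mutant B2. The contrast of cages A and C with cage B (1) became 0 with weights and 4 without replicate 1 of both genotypes, and 0 to 937, the highest without mutant B2. Where leaving out a library leaves 1 in a group, that library is assumed to vary like the others. The contrast of regions (0) ran from 0 to 1, the latter without control B3. An effect in 1 cage uses no library of the others, so leaving those out changes only the shared spread and the genes kept. The causes of the other shifts were not tested.

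With the label number as a replicate block, 0 genes passed between genotypes (lowest adjusted p = 0.259, 1434 at an unadjusted p under 0.05) and 0 between regions (231 at an unadjusted p under 0.05). The block changed no call. Control and mutant pairs of the same cage and number had correlations from -0.15 to 0.28, and the labels do not say what the number marks.

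Of 106 genes named, over 3048 values, 161 passed where the full comparison did not, and 11 changed direction, for Eno1b, Apoa4, Fv1, Abcc6 and Sox13. Of the 435 values of the 15 family medians 3 changed direction, those of integrins with the stricter filter (0.01) and of solute carriers under both scalings. The lists added after seeing the data changed direction in 18 of 637, for proteasome subunits (-0.02 without cage C) and for markers of colonocytes, goblet cells, tuft cells and proximal patterning. The shallow mutants of cage A listed 1234 to 1532 genes at 0, against 213 to 777 elsewhere, which limits low genes there.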
